A study of Mus musculus with 24 samples.

Results

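The 11 microRNAs (miRNAs) of the X-linked miR-322, miR-503, miR-351, miR-542 and miR-450 cluster were described among the 696 mouse miRNAs on 24 Agilent arrays of whole eye, retina and sclera from a mouse form-deprivation myopia study. Members were the miRNAs whose array name starts with one of these 5 numbers, both strands of each hairpin included. The cluster was singled out because miR-450b-3p was called detected in sclera and not in whole eye, so sclera against whole eye is given here as description, with no test. The name of the cluster refers to cell growth, which these arrays do not measure.

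A miRNA is a short RNA that pairs through its seed, bases 2 to 8, with messenger RNAs and lowers their output. Each hairpin can yield a 5p and a 3p strand, of which often only one accumulates. The hairpins of this cluster lie close together on the X chromosome. MiR-322 and miR-503 belong to the extended miR-15/16 group and are known for slowing the cell cycle through targets such as Cdc25a and cyclin D1, among others in differentiating muscle cells. MiR-351 carries the seed of miR-125, and miR-542-3p is known to target the mRNA of survivin, an inhibitor of cell death. The sclera is the collagen coat of the eye made by fibroblasts, and the retina is its neural layer. Form deprivation blurs the image on the retina and makes the eye grow too long.

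All mice were C57BL/6J, aged 34 days, and had worn a diffuser over the right eye for 10 days from postnatal day 24, with the left eye as control. There were 6 whole-eye arrays of each arm, 3 retina arrays of each arm and 3 sclera arrays of each arm, from 6, 9 and 9 mice of 15 in the series. Since both eyes of a mouse were used, the arms share mice, and if the 6 whole-eye mice gave no other tissue, retina and sclera came from the same 9 mice. No label says which mice, or how many, gave the RNA of an array, so all fits treat the arrays as independent. The p-values set each difference against the spread of these arrays, part of which may be technical. Shared mice go against the independence that the p-values assume. Arms follow the sample titles. For retina and sclera the source name, phenotype and description name the opposite arm, so these arms are called titled control and titled myopia and the direction of their difference is unsettled. For whole eye, a sentence of the description goes against the title. Every slide held all groups, but each group kept its own array positions on all 3 slides, so position and group cannot be told apart.

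Per array, 274 to 401 miRNAs were called detected by the scanner software. The 75th percentile of the signal was 1125 to 1741 on whole-eye arrays, 1584 to 2236 on retina arrays and 424 to 1255 on sclera arrays. The dimmest array, at 424 with 274 detected miRNAs, was titled control replicate 3 of sclera, and results that rest on it are given with and without it. Levels below are log2 of a miRNA's summed probe signal divided by the array's 75th percentile signal, with a floor at -7.69. Under the floor levels have no order, and levels of different miRNAs are not set against each other because each has its own probes.

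The mature sequences of all 11 members were found in the RefSeq miRNA table (GRCm38.p6). The strands that carried the signal are printed 5′ to 3′ with the seed in capitals, together with 3 relatives, to show which members share a seed and how closely the probes of miR-450b-3p resemble another strand.
miR-322-5p: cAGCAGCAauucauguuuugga
miR-16-5p: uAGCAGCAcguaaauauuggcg
miR-503-5p: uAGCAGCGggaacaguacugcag
miR-351-5p: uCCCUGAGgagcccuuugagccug
miR-125b-5p: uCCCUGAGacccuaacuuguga
miR-542-5p: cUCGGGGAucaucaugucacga
miR-542-3p: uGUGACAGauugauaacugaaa
miR-450a-5p: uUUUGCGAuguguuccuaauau
miR-450b-3p: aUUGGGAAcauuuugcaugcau
miR-450a-1-3p: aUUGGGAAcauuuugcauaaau
miR-322-3p: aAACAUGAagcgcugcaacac

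MiR-322-5p has the same seed as miR-16-5p, while miR-503-5p shares only the first 6 of its 7 seed bases with miR-322-5p. MiR-351-5p and miR-125b-5p have the same seed and part after it. MiR-450b-3p and miR-450a-1-3p are the same from the 5′ end through base 18 and at 20 of 22 positions. MiR-450a-1-3p has no probe of its own on this array. The 36 member probes read from the 3′ end, and the shortest probe of miR-450b-3p, 18 bases long, matches a run of 14 bases of miR-450a-1-3p. Its longest probe, 21 bases long, matches a run of 17 bases. No member's shortest probe lies wholly within another mature mouse miRNA of the table.

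In the mm9 coordinates of the array files, all member probes map to the minus strand of the X chromosome at chrX:50401188-50407512, a stretch of 6325 bases. The miR-450 and miR-542 probes lie in chrX:50401188-50402652. Those of miR-351, miR-503 and miR-322 lie in chrX:50406455-50407512, after a gap of 3802 bases. In the RefSeq gene table (GRCm38.p6), the hairpin genes Mir351, Mir503 and Mir322 lie within the long noncoding RNA gene C430049B03Rik, and Mir542, Mir450-2, Mir450-1 and Mir450b lie outside it.

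Detection differed from strand to strand. MiR-322-5p was detected on all 24 arrays and miR-542-5p on 23. MiR-503-5p was detected on 17 arrays, namely all 6 of sclera, 11 of 12 of whole eye and 0 of 6 of retina. MiR-450a-5p was detected on all 6 sclera arrays and on 2 whole-eye control arrays. MiR-322-3p, miR-542-3p and miR-450b-3p were detected on 5 of 6 sclera arrays and on no other array. MiR-351-5p lay just outside that pattern, with 3 of 6 sclera arrays and none elsewhere. MiR-450a-2-3p was detected on 1 whole-eye control array, and miR-450b-5p and miR-503-3p on none. The sclera array on which miR-322-3p, miR-542-3p and miR-450b-3p were missed was the dimmest one. Over the 696 miRNAs, 4 were detected on at least 4 of 6 sclera arrays and on no whole-eye array, the 3 members just named and miR-675-3p, and these 4 were also absent from the retina calls. This pattern is the one the cluster was chosen by.

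**Figure D1:**
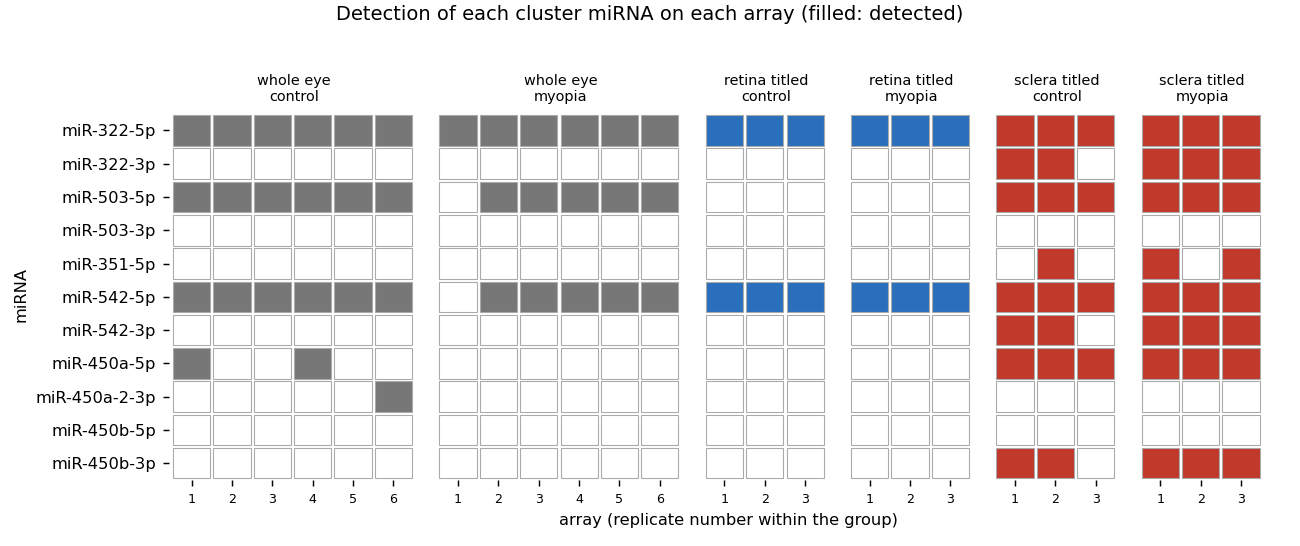
Detection calls of the scanner software for the 11 members (rows) on the 24 arrays (columns, by group and replicate number), with a filled cell where the miRNA was called detected. Sclera arrays show 4 to 8 members, whole-eye arrays 1 to 4 and retina arrays 2, and the sclera array with 4 is titled control replicate 3.

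Among the cell-cycle strands, miR-322-5p was highest in sclera and lowest in retina. Its sclera levels were -0.90, -0.79 and -1.23 in titled control and -1.0, -0.94 and -0.93 in titled myopia. Its retina levels were -3.99, -3.89 and -3.39 in titled control and -4.06, -3.97 and -3.87 in titled myopia. All retina arrays lay below all sclera arrays, by at least 2.16. In whole eye, controls ran from -2.86 over a median of -2.53 to -2.31, and myopia arrays from -3.18 over -2.68 to -2.35. Whole eye thus lay between the other tissues without overlap, 0.21 above the highest retina array and 1.08 below the lowest sclera array. The tissue means were -0.97 ± 0.14 (SD, n = 6) in sclera, -2.62 ± 0.26 (SD, n = 12) in whole eye and -3.86 ± 0.24 (SD, n = 6) in retina. In these bulk samples, fewer cells of a type and less RNA per cell cannot be told apart.

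MiR-503-5p, whose seed differs from that of miR-322-5p in its last base, had the same order of tissues. Its sclera levels were -4.18, -4.24 and -5.01 in titled control and -4.28, -4.28 and -4.33 in titled myopia. All 6 retina arrays were at the floor of -7.69. Whole-eye controls ran from -6.54 over a median of -6.04 to -5.74, and myopia arrays from -7.51 over -6.22 to -5.78. Sclera and whole eye did not overlap, and the only whole-eye array near the floor was myopia replicate 1, where the miRNA was not detected. Its sclera mean was at least 9.91-fold above retina and 3.58-fold above whole eye. Here and below, "at least" sets the brighter tissue's mean against a reference averaged over the arrays of the other tissue. Per array, that reference is the highest of the floor, the dimmest signal called detected there and the signal of the miRNA itself. Such a fold holds on this scale only, and some scalings below gave smaller differences from retina.

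MiR-542-5p was also highest in sclera, but its whole-eye and retina levels overlapped. The sclera levels were -3.38, -3.30 and -2.71 in titled control and -3.09, -3.33 and -3.14 in titled myopia. The retina levels were -6.94, -6.12 and -5.82 in titled control and -6.93, -6.32 and -6.41 in titled myopia. Whole-eye controls ran from -6.03 over -5.88 to -5.56, and myopia arrays from -6.62 over -5.89 to -5.57. Every sclera array was at least 2.18 above every whole-eye array, while the retina range reached from below the lowest whole-eye array up into the whole-eye range. The sclera mean was 6.77-fold the whole-eye mean and 9.60-fold the retina mean. On the dimmest sclera array, miR-542-5p was at -2.71, its highest level, although most other members were at their lowest there.

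The opposite strand of the same hairpin, miR-542-3p, had sclera levels of -4.96, -4.90 and -5.51 in titled control and -4.69, -4.82 and -4.97 in titled myopia. Whole-eye levels were -7.69 to -7.14, with no array detected, and all retina arrays were at the floor. Its sclera mean was at least 4.70-fold above whole eye and at least 6.59-fold above retina. The 5p strand was thus detected in all 3 tissues, and the 3p strand in sclera alone among these arrays.

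The miR-450 strands differed from each other in detection. MiR-450a-5p had sclera levels of -4.19, -4.01 and -4.74 in titled control and -3.95, -4.06 and -4.02 in titled myopia. Its whole-eye levels were -7.51 to -6.11 and its retina levels -7.69 to -7.25. Whole eye and retina overlapped, while sclera lay above both, at least 9.97-fold above retina in the mean and 5.33-fold above whole eye. MiR-450a-2-3p reached -6.54 on the whole-eye control array that detected it and -6.47 on an undetected sclera array, so its tissue ranges overlapped. MiR-450b-5p was above the floor on 3 arrays only, at -6.68 on a whole-eye control array and at -6.81 and -6.76 on sclera titled myopia arrays, with none called detected.

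MiR-450b-3p, the strand behind the choice of the cluster, had sclera levels of -4.91, -4.71 and -5.26 in titled control and -4.58, -4.69 and -4.69 in titled myopia. All retina arrays and 11 of 12 whole-eye arrays were at the floor, and whole-eye control replicate 6 was at -7.25. Its sclera mean was at least 5.43-fold above whole eye and at least 7.41-fold above retina. Before scaling, the summed processed signal was 26.9 to 47.9 units on the 5 sclera arrays that detected it and 11.1 on the dimmest sclera array, which did not. The highest unscaled whole-eye signal was 11.4, on control replicate 6, also not detected. The undetected sclera array and the brightest whole-eye array therefore had nearly the same unscaled signal, and they part only through their 75th percentile signals of 424 and 1741. Of its 4 probes, those of 19, 20 and 21 bases each gave a scaled signal that was higher on every sclera array than on every whole-eye or retina array, and the 18-base probe did not. How much of the signal came from miR-450a-1-3p was not tested. Before scaling, the dimmest sclera array also lay below the highest whole-eye array in other members. The values were 181 against 294 for miR-322-5p and 13.2 against 27.7 for miR-503-5p. They were 15.8 against 18.7 for miR-450a-5p and 9.32 against 12.3 for miR-542-3p. On that array, the separation of these members from whole eye thus rests on the scaling. MiR-542-5p (64.6 against 30.2), miR-322-3p and miR-351-5p stood above every whole-eye array unscaled as well.

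The strands nearest the detection limit were miR-322-3p and miR-351-5p. MiR-322-3p had sclera levels of -6.50, -6.23 and -6.91 in titled control and -6.31, -6.20 and -6.56 in titled myopia, against the floor on all 18 other arrays. Of its 4 probes, 1 separated sclera from the other tissues, the 14-base one. MiR-351-5p had sclera levels of -7.17, -7.09 and -6.63 in titled control and -6.83, -7.25 and -7.11 in titled myopia, again against the floor elsewhere. Its unscaled signal was 4.29 to 9.22 units in sclera and reached 8.31 on a retina array, so the gap between the tissues rests on the scaling. Its detected and undetected sclera arrays were not in order of level, since the highest of the 6, the dimmest array at -6.63, was not called detected.

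**Figure D2:**
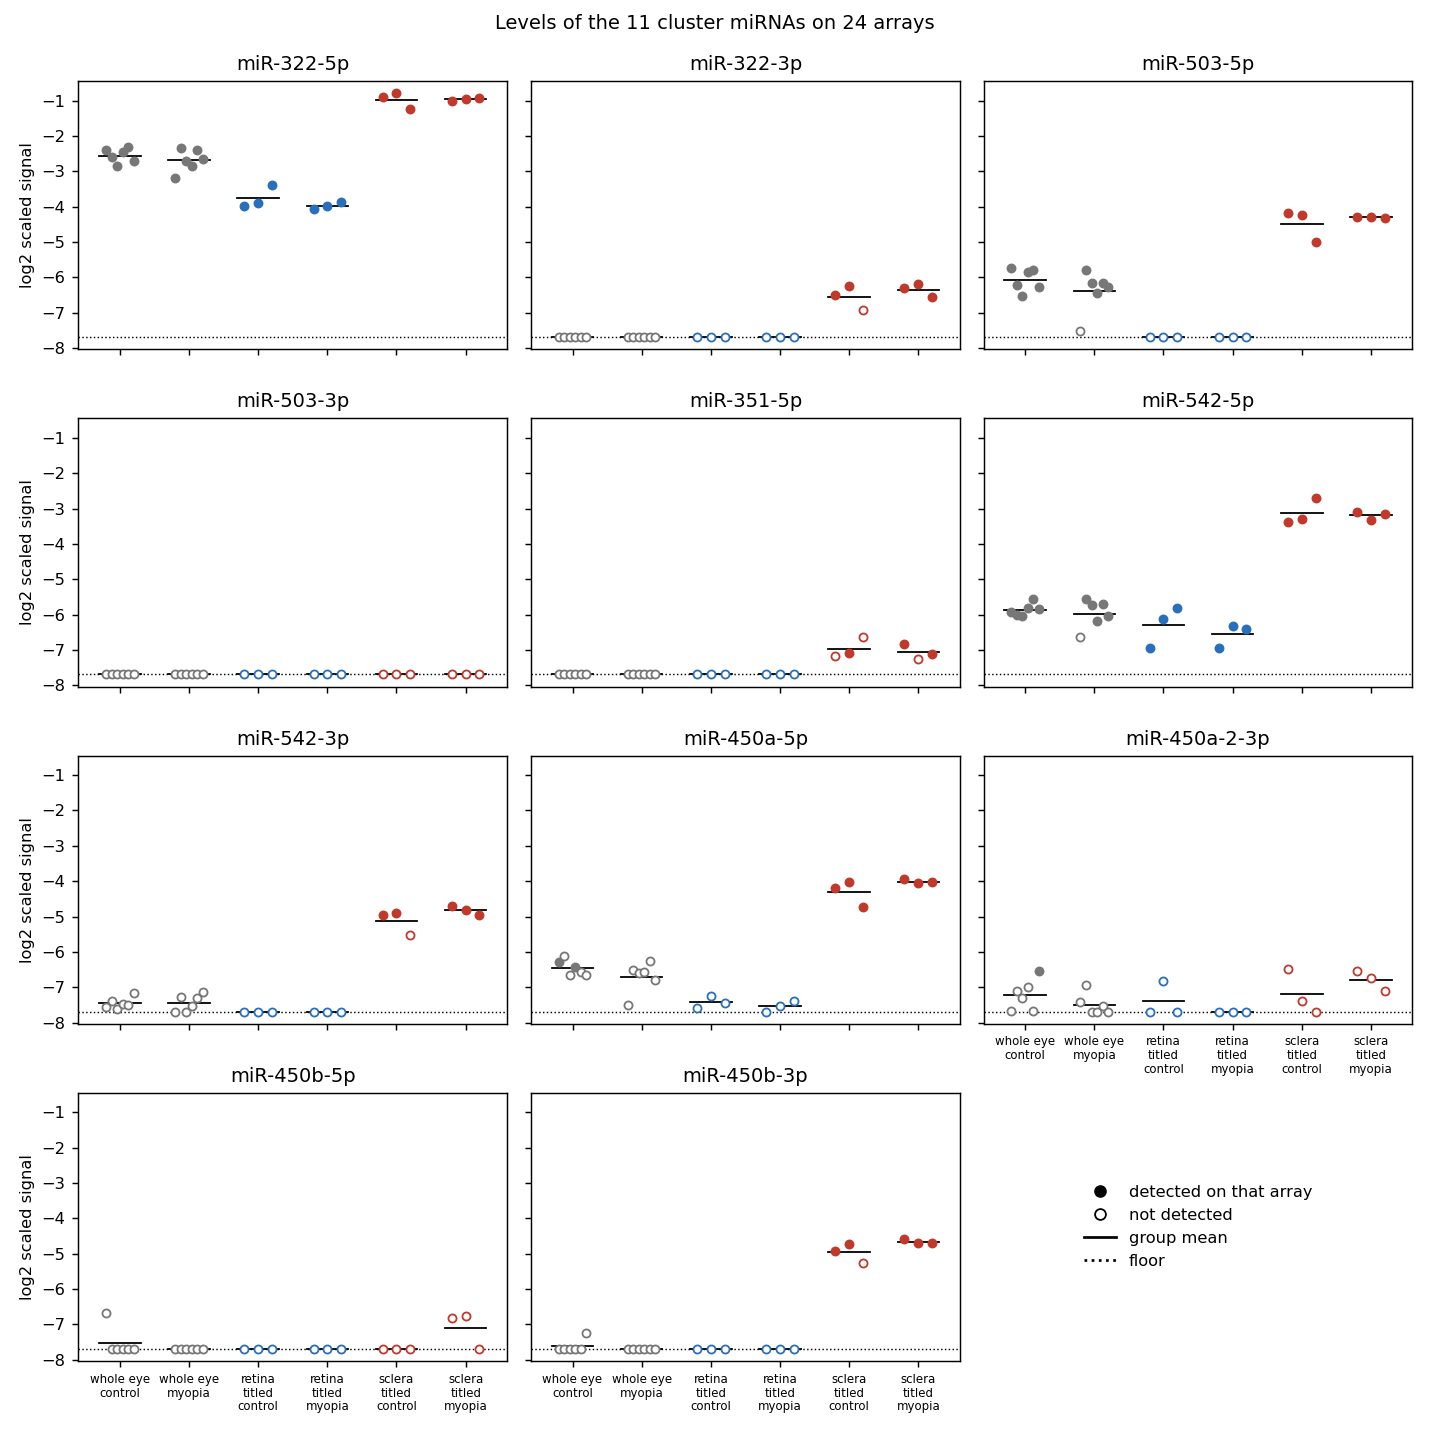
Level (log2 scaled signal, vertical axis) of each of the 11 members on each array, by tissue and titled arm, with filled points where the miRNA was detected, open points where it was not, a bar at the group mean and a dotted line at the floor of -7.69. MiR-322-5p, miR-503-5p, miR-542-5p, miR-542-3p, miR-450a-5p and miR-450b-3p have all 6 sclera arrays above every other array, while miR-503-3p is at the floor throughout.

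Retina was then compared with the other tissues with limma in a fit of all 24 arrays over the 426 miRNAs that passed the detection filter, at a Benjamini-Hochberg adjusted p of 0.05. The filter asked for detection on at least 2 of every 3 arrays of a group, and 8 of the 11 members passed it. Of these, 5 passed through sclera groups only (miR-322-3p, miR-351-5p, miR-450a-5p, miR-450b-3p and miR-542-3p), so they had to be higher in sclera. MiR-503-5p passed through sclera and whole-eye groups and was undetected in retina, so it could not come out higher there. Only miR-322-5p and miR-542-5p also passed through retina groups and bear on the comparison. No test was made for miR-450b-3p against sclera. The sclera arrays are also those on which the cluster was chosen.

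Retina was lower than sclera in miR-322-5p by -2.89 ± 0.13 (SE, log2, limma adjusted p = 2.09e-14) and in miR-542-5p by -3.26 ± 0.19 (limma adjusted p = 1.09e-12). All 6 retina arrays lay below all 6 sclera arrays each time. MiR-503-5p differed by -3.31 ± 0.22, also without overlap, but it could not be higher in retina. The retina side of miR-503-5p is the floor, so its difference is a bound on this scale. The fit called 7 of 7 members lower, including miR-503-5p and the 4 that had to differ. Of all 426 miRNAs, 30.5% were called lower, 58.7% higher and 89.2% in either direction. The other differences were -3.32 for miR-450a-5p, -2.72 for miR-542-3p, -1.24 for miR-322-3p and -0.68 for miR-351-5p. The median over all 426 miRNAs was 0.81.

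That median depended on the scaling between arrays. It was 0.08 with the percentile taken over all miRNAs, 0.20 with quantile normalisation, -0.85 with normexp background correction and -0.07 in the deposited series table, and the share of called miRNAs that were higher in retina moved from 65.8% to 51.1%, 55.3%, 21.7% and 46% in the same order. Of the 426 miRNAs, 130 were called lower in retina, and 173, 165, 245 and 190 with the other scalings in the same order. With normexp, most miRNAs were thus called lower. Under these 5 scalings, miR-322-5p and miR-542-5p were lower in retina and called. So was miR-503-5p, undetected in retina. MiR-322-5p ranged from -3.68 to -2.05, miR-503-5p from -3.65 to -1.50 and miR-542-5p from -3.99 to -1.67. Within slides 1, 2 and 3, miR-322-5p differed by -3.37, -3.24 and -2.56, miR-503-5p by -4.03, -3.01 and -2.48, and miR-542-5p by -3.99, -3.09 and -3.20. Of the members that had to differ, miR-351-5p was not called within slide 2 (-0.10, adjusted p = 0.163) or slide 3 (-0.28, adjusted p = 0.156). Over all alternatives its adjusted p ran from 1.7e-11 to 0.163. Without the dimmest sclera array, the differences were -3.05 for miR-322-5p, -3.47 for miR-503-5p and -3.25 for miR-542-5p, each still called.

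Retina was also lower than whole eye in the cell-cycle strands. MiR-322-5p differed by -1.24 ± 0.12 (SE, log2; limma adjusted p = 3.96e-09), with every retina array below every whole-eye array. MiR-503-5p differed by -1.47 ± 0.19, and on this scale the whole-eye mean was at least 2.77-fold above retina. It was not detected in retina, so it could not come out higher there. MiR-450a-5p differed by -0.90 ± 0.14 (adjusted p = 6.44e-06) and miR-542-5p by -0.50 ± 0.17 (adjusted p = 0.00801), in ranges that overlapped. MiR-450a-5p was detected on only 2 of 12 whole-eye arrays and 0 of 6 retina arrays. The fit called 5 of 8 members lower, against 23% of all 426 miRNAs called lower, 65% called higher and 88% called in either direction. The remaining called member, miR-542-3p at -0.25, was detected on no array of either tissue, and miR-322-3p, miR-351-5p and miR-450b-3p were undetected in both. With the arrays of these tissues alone, the members tested were miR-322-5p, miR-503-5p and miR-542-5p, and each was called lower in retina. MiR-503-5p passed the filter there through whole-eye groups alone, so its sign was fixed.

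Here the scaling decided more. The median over all miRNAs was 0.70, and 0.16, 0.24, 0.12 and 0.25 with all miRNAs in the percentile, quantile, normexp and the series table. The share of called miRNAs that were higher in retina moved from 73.9% to 56.9%, 60.7%, 68.7% and 60% in the same order. MiR-322-5p was called lower under all 5 scalings, from -1.94 to -0.75. With normexp, miR-503-5p (-0.16, adjusted p = 0.736), miR-450a-5p (-0.12, adjusted p = 0.814) and miR-542-5p (-0.22, adjusted p = 0.626) were no longer called, and over all alternatives their adjusted p began at 8.63e-11, 7.63e-09 and 1.5e-05. Within slides 1, 2 and 3, miR-322-5p differed by -1.54, -1.61 and -0.96 and miR-503-5p by -1.81, -1.20 and -0.88. MiR-450a-5p differed by -1.20, -0.82 and -0.52 and miR-542-5p by -1.04, -0.61 and -0.25, neither of them called within slide 3 (adjusted p = 0.0671 and 0.359).

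**Figure D3:**
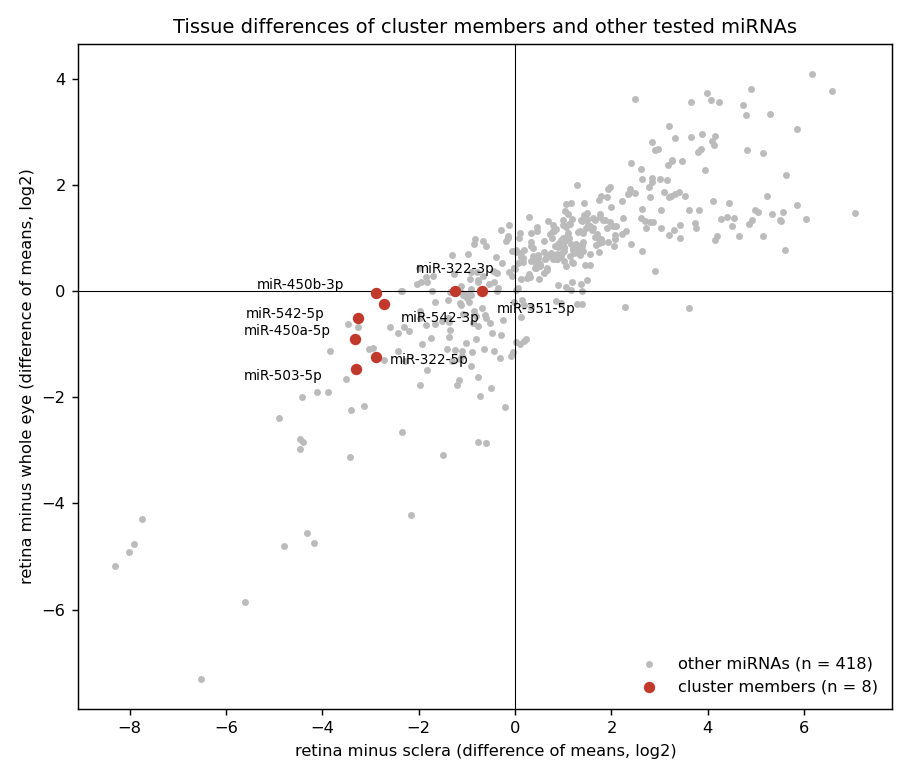
Difference of tissue means (log2) for retina minus sclera (horizontal axis) and retina minus whole eye (vertical axis), which share the retina arrays, for 8 members (red, named) and 418 other tested miRNAs (grey). The members lie left of 0, from -3.32 for miR-450a-5p to -0.68 for miR-351-5p, and at or below 0 on the vertical axis. Of them, 5 passed the filter through sclera alone, and miR-503-5p through sclera and whole eye but not retina.

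Markers of the cell types these tissues can hold also differed between the tissues. Fibroblast and mesenchyme markers (miR-199a, miR-214, miR-143, miR-145) had a summed level of 3.97 to 4.28 in sclera, 0.65 to 1.67 in whole eye and -3.28 to -1.60 in retina. In sclera, miR-199a-3p alone had a mean level of 3.70. The 5 retina and neuron markers (miR-124, miR-9, miR-183, miR-96, miR-182) were detected on all 6 sclera arrays, at a summed level of 1.38 to 3.98 against 7.55 to 7.81 in retina. Skeletal muscle markers (miR-1a, miR-133a, miR-133b, miR-206) stood at 1.90 to 2.83 in sclera, above 0.40 to 1.24 in whole eye and -2.05 to -1.23 in retina. Cartilage markers (miR-140 strands) were at 1.69 to 2.11 in sclera, -0.56 to -0.06 in whole eye and -0.30 to -0.10 in retina. The endothelial miR-126-3p was at 1.76 to 2.26, 0.82 to 1.09 and 0.17 to 0.43, erythrocyte markers at 0.00 to 0.32, -1.47 to -0.32 and -2.02 to -1.36, and leukocyte markers at -0.53 to -0.26, -3.14 to -2.48 and -5.05 to -4.09, in the same order. Lens and cornea markers (0.33 to 3.20, 3.27 to 4.18 and -2.79 to 2.31) and pigment epithelium markers (2.80 to 4.04, 4.30 to 4.60 and 4.42 to 4.73) were not highest in sclera. In summed level, sclera was thus higher than both other tissues in fibroblast and mesenchyme, cartilage, muscle, endothelial, erythrocyte and leukocyte markers, with no overlap. Not every single marker followed its sum. The erythrocyte miR-144-3p overlapped across tissues (sclera -7.40 to -5.05, whole eye -7.69 to -5.90, retina -6.95 to -6.16). The muscle miR-206-3p, at -5.96 to -2.54 in retina, overlapped -3.17 to -2.41 in sclera. MiR-322-5p, miR-503-5p and miR-542-5p were also higher in sclera with no overlap. Of these, miR-503-5p could not be higher in retina, and the other 5 tested members had to be higher in sclera. Of the fibroblast and mesenchyme markers, miR-214-3p was detected on no retina array, and all 5 were detected on all sclera and whole-eye arrays. The part of any of these cell types in the member levels was not tested.

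The seed relatives encoded elsewhere in the genome were set beside the members as a list. Of 5 miR-15/16 strands, 5 were called higher in retina than in whole eye, from 0.16 for miR-497-5p to 0.78 for miR-15a-5p, but with the percentile over all miRNAs 0 were called higher, 3 lay below 0 and miR-497-5p was called lower at -0.39, as it was with quantile normalisation at -0.18. Over all miRNAs the median was 0.70 and 65% were called higher, and miR-322-5p was at -1.24. Against sclera, 3 were higher (miR-15a-5p at 1.21, miR-16-5p at 0.95 and miR-15b-5p at 0.67) and 2 lower (miR-195-5p at -0.46 and miR-497-5p at -0.78), beside -2.89 for miR-322-5p. With the percentile over all miRNAs these values were 0.42, 0.16, -0.11, -1.25 and -1.56, beside -3.68 for miR-322-5p, so miR-15b-5p turned. Under each of the 5 scalings miR-322-5p was below all 5 of these relatives in both comparisons. Of the miR-125 strands, miR-125b-5p was lower in retina than in sclera at -1.12, and miR-125a-5p was at 0.28, or -0.50 with the percentile over all miRNAs and -0.06 with quantile normalisation. Of 76 other miRNAs with X-linked probes, 32 were tested, and 10 were lower and 19 higher in retina than in sclera. Of all 426 miRNAs, 30.5% were lower and 58.7% higher, which is close to these shares. The X-linked median of 0.48 turned to -0.12 with the percentile over all miRNAs (16 lower, 13 higher). It was -0.01 with quantile normalisation, -1.21 with normexp and -0.57 in the series table. These differences were not tested against those of the members.

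By Pearson correlation over the 24 arrays, the 5 non-members most like the mean profile of miR-322-5p, miR-503-5p and miR-542-5p were miR-148a-3p (r = 0.990), miR-299b-5p (0.985), miR-24-3p (0.983), miR-152-3p (0.983) and miR-142-3p (0.983), of 236 candidates detected on every array. MiR-148a-3p had mean levels of 0.52 in sclera, -0.93 in whole eye and -1.69 in retina, and miR-142-3p, a leukocyte marker, -2.81, -4.68 and -5.75. The points share tissue and array brightness, and 2 of the 3 profile members were undetected on some arrays.

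The arms of each tissue were then compared, which is the question of form deprivation itself. In whole eye, limma on 6 against 6 arrays called 0 of 3 tested members, with 0 at an unadjusted p under 0.05, against 35 of 341 miRNAs called, all higher in myopia, a percent called of 10.3. On the scale of the whole-eye fit, miR-322-5p ran from -2.22 over -1.94 to -1.81 in control and from -2.55 over -1.98 to -1.82 in myopia. The difference was -0.04 (95% interval -0.32 to 0.23, adjusted p = 0.884). MiR-503-5p differed by -0.18 (-0.64 to 0.27, adjusted p = 0.647) and miR-542-5p by -0.02 (-0.35 to 0.31, adjusted p = 0.929). The arms overlapped for all 3. In each, the lowest myopia array was replicate 1, and without it the differences were 0.06, 0.00 and 0.11. With quantile normalisation, which turned 35 higher and 0 lower calls into 32 and 64, miR-503-5p at -0.76 (adjusted p = 0.0195) and miR-542-5p at -0.60 (adjusted p = 0.00768) were called lower, and under every other alternative run they were not, up to an adjusted p of 1.

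Within slides 1, 2 and 3, the whole-eye difference of miR-322-5p was -0.44, 0.08 and 0.23 on that scale, that of miR-503-5p -0.88, 0.02 and 0.31, and that of miR-542-5p -0.40, 0.15 and 0.18. Slide 1 holds myopia replicate 1, and the other slides had the opposite sign on that scale. Scaled and fitted on its own arrays, slide 3 gave -0.02 for miR-322-5p, 0.06 for miR-503-5p and -0.07 for miR-542-5p.

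In retina, limma on 3 against 3 arrays called 0 of 2 members and 0 of 396 miRNAs, a percent called of 0, with 0 members and 20 miRNAs at an unadjusted p under 0.05. MiR-322-5p was at -3.38, -3.0 and -2.71 in titled control and at -3.40, -3.32 and -3.15 in titled myopia, a difference of -0.26 (95% interval -0.76 to 0.24, adjusted p = 0.752). MiR-542-5p was at -6.32, -5.23 and -5.13 in titled control and at -6.26, -5.68 and -5.69 in titled myopia, a difference of -0.32 (-1.27 to 0.64, adjusted p = 0.826). The arms overlapped for both. Within slides 1, 2 and 3, where 1 array stands against 1, the differences were -0.02, -0.32 and -0.44 for miR-322-5p and 0.06, -0.45 and -0.55 for miR-542-5p. Single arrays moved both values without a call. Without titled control replicate 1, the lowest control array, the differences were -0.49 (limma adjusted p = 0.0927) and -0.75 (adjusted p = 0.0794), and without titled control replicate 3 they were -0.15 and -0.14. MiR-542-5p was at -0.18 without titled control replicate 2 and at -0.12 without titled myopia replicate 1. Quantile normalisation gave -0.74 for miR-322-5p and -0.87 for miR-542-5p, and the percentile over all miRNAs -0.66 and -0.71, none of them called (adjusted p from 0.166 to 0.294). The median over all miRNAs also fell with these scalings, from -0.07 to -0.23 and -0.46 in the same order.

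In sclera, where 8 members could be tested, limma called 0 of 8 members and 0 of 311 miRNAs, a percent called of 0, with 0 members and 7 miRNAs at an unadjusted p under 0.05. All 8 members had the higher mean in titled myopia, as did 207 of the 311 miRNAs (66.6%). MiR-450b-3p was at -4.57, -4.33 and -5.13 in titled control and at -4.15, -4.16 and -4.29 in titled myopia on the sclera scale. The groups did not overlap, and the difference was 0.47 (95% interval -0.08 to 1.02, unadjusted p = 0.0797, limma adjusted p = 0.887). MiR-450a-5p, at -3.85, -3.63 and -4.61 against -3.53, -3.53 and -3.62, also did not overlap and differed by 0.47 (-0.18 to 1.12, adjusted p = 0.887). MiR-542-3p differed by 0.46, miR-322-3p by 0.35, miR-503-5p by 0.34, miR-322-5p by 0.18, miR-542-5p by 0.11 and miR-351-5p by 0.07, with overlapping arms and adjusted p from 0.887 to 0.999. Within slides 1, 2 and 3, again with 1 array against 1, miR-450b-3p differed by 0.41, 0.17 and 0.83 and miR-450a-5p by 0.32, 0.09 and 0.99. MiR-542-3p (0.36, 0.23 and 0.80) and miR-322-3p (0.27, 0.18 and 0.62) also had 1 sign on all slides. For miR-322-5p (-0.02, 0.00 and 0.57) and miR-503-5p (-0.01, 0.11 and 0.94) the difference lay almost wholly on slide 3, which holds the dimmest array. MiR-542-5p (0.37, 0.12 and -0.16) and miR-351-5p (0.42, -0.02 and -0.21) were lower in titled myopia there.

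These sclera differences moved with single arrays. On the 24-array scale, the dimmest array, titled control replicate 3, was the lowest of 6 for 6 of the 8 members and the highest for miR-351-5p and miR-542-5p. Without it, the differences were 0.18 for miR-450b-3p, 0.11 for miR-450a-5p, 0.13 for miR-542-3p, 0.03 for miR-322-3p, -0.06 for miR-503-5p and -0.09 for miR-322-5p, while miR-542-5p was at 0.18 and miR-351-5p at 0.09, with adjusted p from 0.674 to 0.958. Without titled control replicate 2, miR-322-3p was at 0.56, miR-322-5p at 0.32, miR-450a-5p at 0.67, miR-450b-3p at 0.64, miR-542-3p at 0.62, miR-503-5p at 0.51, miR-542-5p at 0.07 and miR-351-5p at 0.05 (adjusted p from 0.53 to 0.961). Without titled control replicate 1, miR-503-5p was at 0.52, miR-542-5p at 0.02 and miR-351-5p at -0.01, and without titled myopia replicate 2, miR-542-5p was at 0.18 and miR-351-5p at 0.15. The dimmest array also had the lowest summed level of the retina and neuron markers, 1.38 against 2.52 to 3.98 on the other sclera arrays. Its fibroblast and mesenchyme markers were at 4.13 within a range of 3.97 to 4.28. The part of brightness and of the neuron marker level in the sclera differences was not tested. Turning the arms, as the other label fields would have it, turns the sign of each retina and sclera difference and leaves its size.

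**Figure D4:**
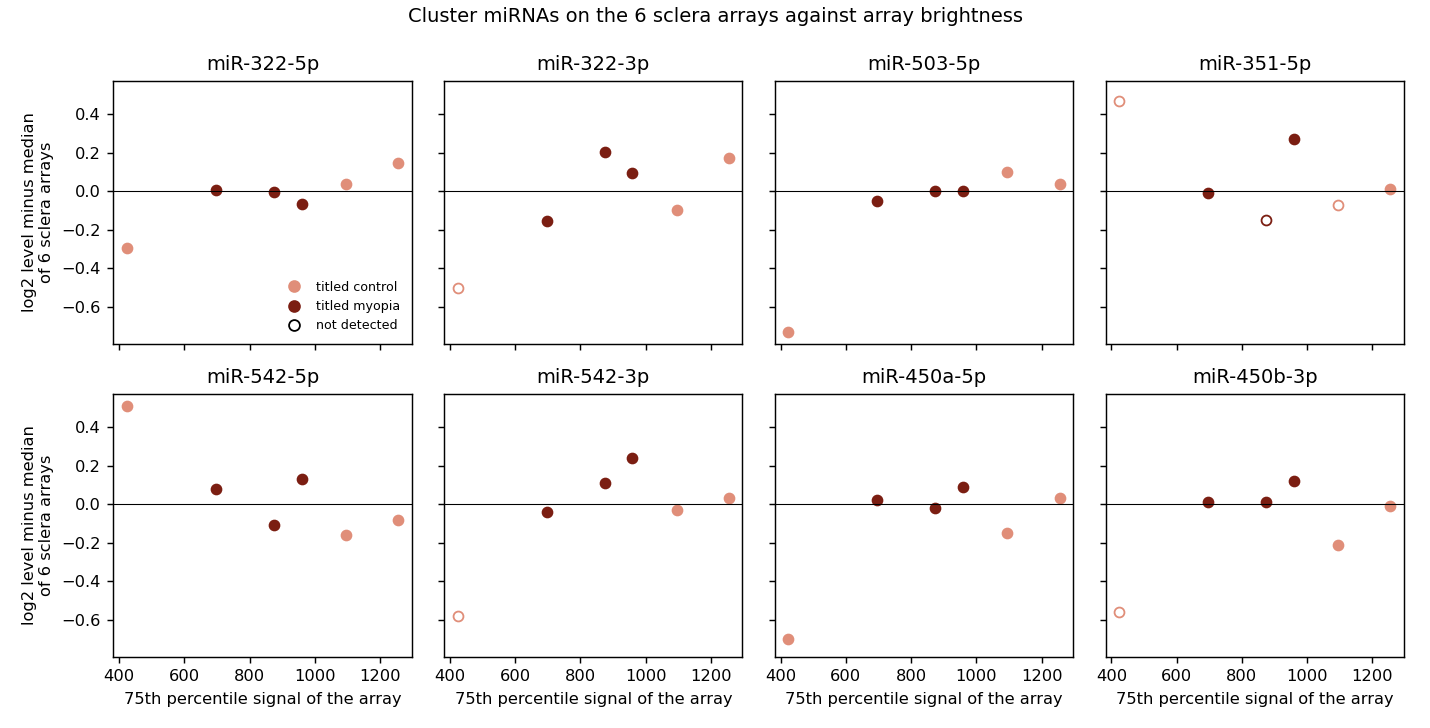
Level of 8 members on the 6 sclera arrays as the difference from that member's median (log2, vertical axis) against the 75th percentile signal of the array (horizontal axis), light for titled control, dark for titled myopia and open where not detected. The leftmost array, at 424, is the lowest point for 6 members and the highest for miR-351-5p and miR-542-5p.

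**Figure D5:**
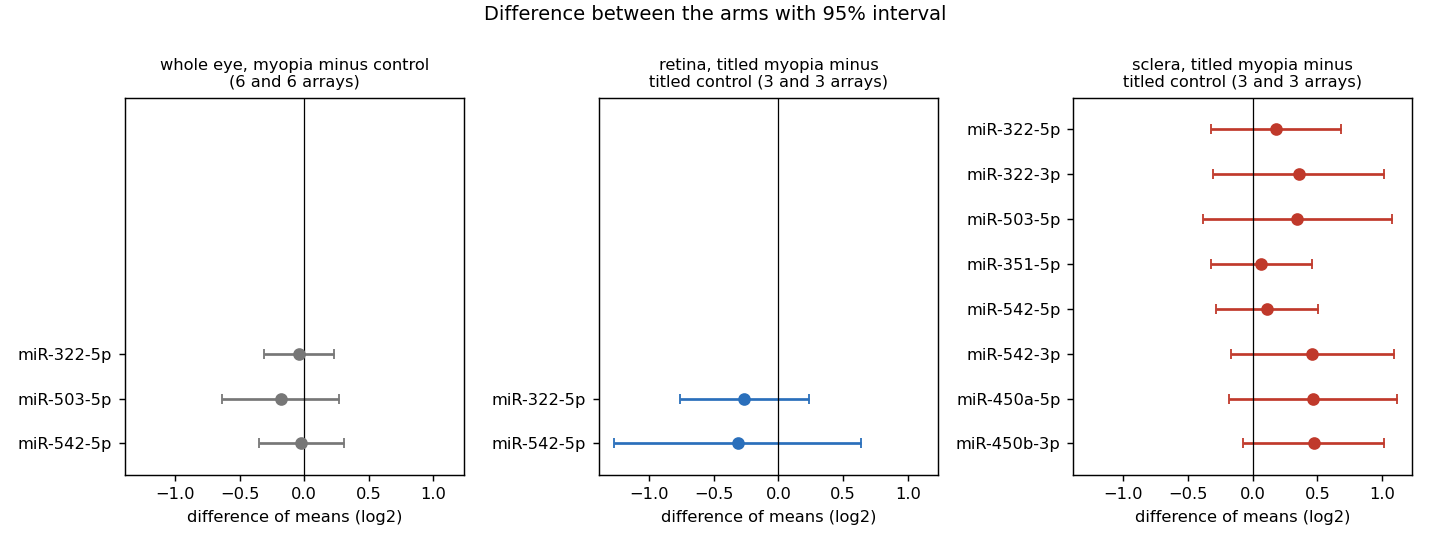
Difference between titled myopia and titled control (log2, horizontal axis) with its 95% interval for each tested member in whole eye (3), retina (2) and sclera (8), from a limma fit per tissue. Every interval includes 0, and all 8 sclera points lie to its right.

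The arm difference was compared between tissues in the 24-array fit. Of the 24 member tests, 17 had a side on which the member was not detected on at least 2 of every 3 arrays, and these are not read. The other 7 were miR-322-5p and miR-542-5p in all 3 tissue pairs and miR-503-5p in sclera against whole eye. Limma called 0 of the 7, with 0 at an unadjusted p under 0.05. The percent called was 1.17 over all miRNAs for retina minus whole eye, 2.35 for sclera minus whole eye and 1.64 for retina minus sclera. The smallest p was that of miR-503-5p, sclera minus whole eye, at 0.50 (95% interval -0.28 to 1.28, unadjusted p = 0.197, limma adjusted p = 0.55). For miR-322-5p the arm difference was 0.15 higher in sclera than in whole eye (-0.34 to 0.63, adjusted p = 0.863) and -0.08 in retina against whole eye (-0.57 to 0.41, adjusted p = 1). None of the 7 was called under the 36 alternatives run for each, the turned arms included, and the smallest adjusted p was 0.0799. With the retina and sclera arms turned, the percent called over all miRNAs was 19 for retina minus whole eye. For sclera minus whole eye it was 0.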

How the data were processed

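The 24 scanner files hold deposited intensity values per spot from single-colour arrays of Cy3-labelled total RNA, from Agilent Feature Extraction, version 11 per the submitters' processing notes. Per the file headers, that software subtracted background and set the detection call of each miRNA. The series table holds the authors' log2 values per probe, and 0 columns were left unmapped. Its scale matched the log2 processed signal at bright probes (largest gap 0.397, but 4.14 on sclera titled control replicate 1). No source used here says how it treats dim probes. Its column medians were 3.18 to 4.07.

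Unflagged spots were averaged per probe and summed per miRNA. Each array was scaled to its 75th percentile, taken over 288 miRNAs in the whole-eye fit, 329 in retina, 266 in sclera and 237 in the joint fit, namely those that every array of the fit detected. Before taking log2, low values were raised to a floor, the median of the arrays' dimmest detected signals (-6.58, -9.32, -7.18 and -7.69 in the same order). Differences were tested two-sided with limma 3.58.1 (R 4.3.3; lmFit and eBayes) and Benjamini-Hochberg adjustment over all miRNAs tested. Intervals are 95%. The fit was tested on simulated data. Signal over background and the number of arrays limit the precision. Saturated member spots numbered 0.

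The members, the lists and the tests were chosen with earlier results of these data known. Named were all members, the seed relatives and X-linked miRNAs as counts with examples, and the 5 non-members most like the members. Alternatives covered scaling, background correction, filter, floor, probe summary, array weights, slide, replicate number and leaving out each array. Other steps used Python 3.11.15 (numpy 2.4.6, pandas 2.3.3, matplotlib 3.10.9).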

Additional observations from a re-analysis of the deposited data

Results flagged for a closer look

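Whole-eye myopia replicate 1 stood apart from the other 5 arrays of its group in a pair of members. MiR-322-5p was at -2.55 there on the whole-eye scale, with the next array at -2.03, a gap of 0.712 of the group's whole range against a limit of 0.625. MiR-503-5p was at -6.58, which is the floor of that scale, with the next array at -5.66 (0.715 of the range). MiR-542-5p was also lowest there, at -5.99, within the limit (0.564). That array detected 1 member, against 3 on each other whole-eye myopia array, and 326 miRNAs in all, within the range of 305 to 357 over whole-eye arrays. Chance alone flags about 1 in 20 groups, and 6 groups were examined. Those groups share the same 12 arrays, and the flags fall on the same array, so they are not independent.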

How the results depend on the processing

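The number of members called was 0 in the whole-eye arms except with quantile normalisation (2), and 0 in the retina and sclera arms under all alternatives. Against whole eye, 5 of 8 tested members were called in retina, 1 with normexp and 2 within slide 3. With the arrays of these tissues alone it was 3 of 3 tested, where miR-503-5p passed through whole-eye groups only. It was 8 with the series table and with each array's own floor, where undetected members are included. Against sclera, 7 members were called, 6 to 8 under the alternatives. Leaving out each array gave 0 in the arms of each tissue, 4 to 5 for retina against whole eye, 6 to 7 for retina against sclera and 0 to 1 for the differences between arms of tissues, the 1 being miR-450b-3p in sclera against whole eye, where it is not detected, without sclera titled control replicate 2. No called tissue difference changed sign, though for members detected in sclera alone the sign against sclera was fixed by the filter. MiR-503-5p, undetected in retina, could not be higher there. Signs of uncalled arm differences did. In whole eye, within refitted slide 2, miR-322-5p was 0.11, miR-503-5p 0.05 and miR-542-5p 0.18, within slide 3 miR-503-5p was 0.06 (miR-322-5p and miR-542-5p kept their sign there), and with the series table miR-542-5p was 0.13. In sclera, normexp gave -0.08 for miR-322-3p, -0.09 for miR-351-5p, -0.06 for miR-450a-5p, -0.06 for miR-450b-3p, -0.08 for miR-503-5p, -0.10 for miR-542-3p and -0.04 for miR-542-5p. MiR-322-3p was -0.02 with the series table, and miR-351-5p was 0.00 there and with the percentile over all miRNAs. With all 24 arrays in the fit, miR-351-5p was -0.10 and miR-542-5p -0.05. Leaving out each array, whole eye ranged from -0.09 to 0.06 for miR-322-5p and from -0.09 to 0.11 for miR-542-5p, retina from -0.49 to -0.15 for miR-322-5p and from -0.75 to -0.12 for miR-542-5p, and sclera from -0.09 to 0.32 for miR-322-5p, -0.01 to 0.15 for miR-351-5p and -0.06 to 0.52 for miR-503-5p. The cause was not tested. The median arm difference over all miRNAs itself moved with the scaling, from 0.08 to -0.13 in whole eye and from -0.07 to -0.46 in retina with the percentile over all miRNAs.

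Arms share mice and replicate numbers, but no label says that a number marks a mouse. Same-numbered arrays had r over 0.1 in 3 of 6 pairs in whole eye, 2 of 3 in retina and 0 of 3 in sclera, and in no tissue did every array correlate best with its own number, so whether the numbers pair eyes is not known. With the replicate number as a block, 0 members were called in each tissue's arms, 5 for retina against whole eye, 7 for retina against sclera and 0 for the differences between arms.

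Members under detection rest on the floor, so their differences are bounds on the scale and floor used. Sclera arrays were dimmer than retina arrays, and corner control spots read 104 to 163 on sclera and 196 to 576 on retina arrays. On whole-eye arrays they read 137 to 230 in control and 226 to 487 in myopia. The part of this in the whole-eye arm differences was not tested. The direction of the retina and sclera arms is unsettled.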
